A study of Homo sapiens with 39 samples.

Results

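The genes described here are 8 of the 60671 in a deposited RNA-seq table of 39 libraries. They encode surface proteins through which a tumour cell can restrain immune cells. The genes are CD274, PDCD1LG2, CD276, PVR, NECTIN2, CD47, ENTPD1 and NT5E, and they were taken by gene symbol, with each symbol found once. Levels are given as TPM, the share of a library's transcripts taken by a gene after correction for transcript length.

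The libraries came from A375 and WM115, which are established lines of human melanoma. The series deleted enhancer regions of SOX10, the gene of a transcription factor of melanocytes and the neural crest, and the regions are named R1 and R4 in the labels. Wild-type (WT) cells of each line gave 4 libraries. The A375 clones 1.1 and 1.2 carry the R1 deletion, with 3 and 4 libraries, and the A375 clones 4.1 and 4.2 carry the R4 deletion, with 4 and 3 libraries. In WM115 the R1 clones 1.1 and 1.2 gave 5 and 3 libraries, and the R4 clones 4.1 and 4.2 gave 3 each. A further WM115 clone, 1.3, has 3 libraries, and since its title points to R1 and its genotype label to R4, it was kept apart. The labels name no treatment and do not say whether one or both alleles were deleted. Each deleted group is a single clone, so a test over its libraries compares that clone with WT and not the deletion with its absence. The labels do not say that libraries of a group came from separate cultures, and p-values then measure only the spread between these libraries.

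SOX10 was at 630 to 706 TPM in A375 WT and present in every other library too. WM115 clone 1.2 library 3 stood apart, because its 8 melanocytic markers summed to 29.4 TPM, while the lowest sum in any other WM115 group was 661 TPM. Member differences of WM115 clone 1.2 that passed the test are therefore given without this library too. TYR was under 0.1 TPM in all A375 libraries, so A375 lacks that marker of pigment cells. The 9 leukocyte markers summed to at most 1.49 TPM in A375 and 2.36 TPM in WM115, and CD14 and CSF1R reached 1 TPM in WM115 clone 1.2 alone. The 4 endothelial markers summed to 3.64 to 16.3 TPM in WM115 clone 1.2, with PECAM1, CDH5 and KDR at 1 TPM or more in some library, and to 2.46 to 5.91 TPM in WM115 WT. In WM115 clone 1.3 the endothelial sum reached 10.2 TPM. Keratinocyte markers summed to up to 30.4 TPM in A375 and 3.65 TPM in WM115, with KRT14 alone at 1 TPM or more. Fibroblast markers summed to up to 10.8 TPM in A375 and 27.0 TPM in WM115, the latter in WT. The part of these markers in the results of clone 1.2 or any other group was not tested. The read depth behind the values is unknown, and no counting interval can be given.

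By way of background, CD274 (PD-L1) and PDCD1LG2 (PD-L2) are the ligands of PD-1, an inhibitory receptor of T cells, and interferon gamma induces CD274 through JAK kinases and IRF1. CD276 (B7-H3) is a relative of both. PVR (CD155) and NECTIN2 (CD112) are adhesion proteins that bind the inhibitory receptor TIGIT and the activating receptor CD226 on T cells and natural killer cells. CD47 binds SIRPA on macrophages and restrains phagocytosis. ENTPD1 (CD39) cleaves extracellular ATP to AMP, and NT5E (CD73) turns AMP into adenosine, which suppresses immune cells through ADORA2A and ADORA2B.

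Of the 8 genes, CD276 and NT5E were the most abundant in both lines. Over all libraries of a line, CD276 had a mean of 130 ± 28.3 TPM (SD, n = 18) in A375 and 63.9 ± 11.6 TPM (SD, n = 21) in WM115. NT5E had 84.7 ± 23.3 TPM (SD, n = 18) in A375 and 97.1 ± 40.1 TPM (SD, n = 21) in WM115. PVR, CD47 and NECTIN2 were intermediate, with means over the lines between 27.9 and 45.2 TPM. The other 3 genes were low. ENTPD1 averaged 1.84 TPM in A375 and 2.34 TPM in WM115, CD274 averaged 2.65 TPM and 0.509 TPM, and PDCD1LG2 averaged 0.201 TPM and 0.517 TPM. Since NT5E exceeded ENTPD1 in every library, the TPM levels of this enzyme pair were unequal in both lines.

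**Figure D1:**
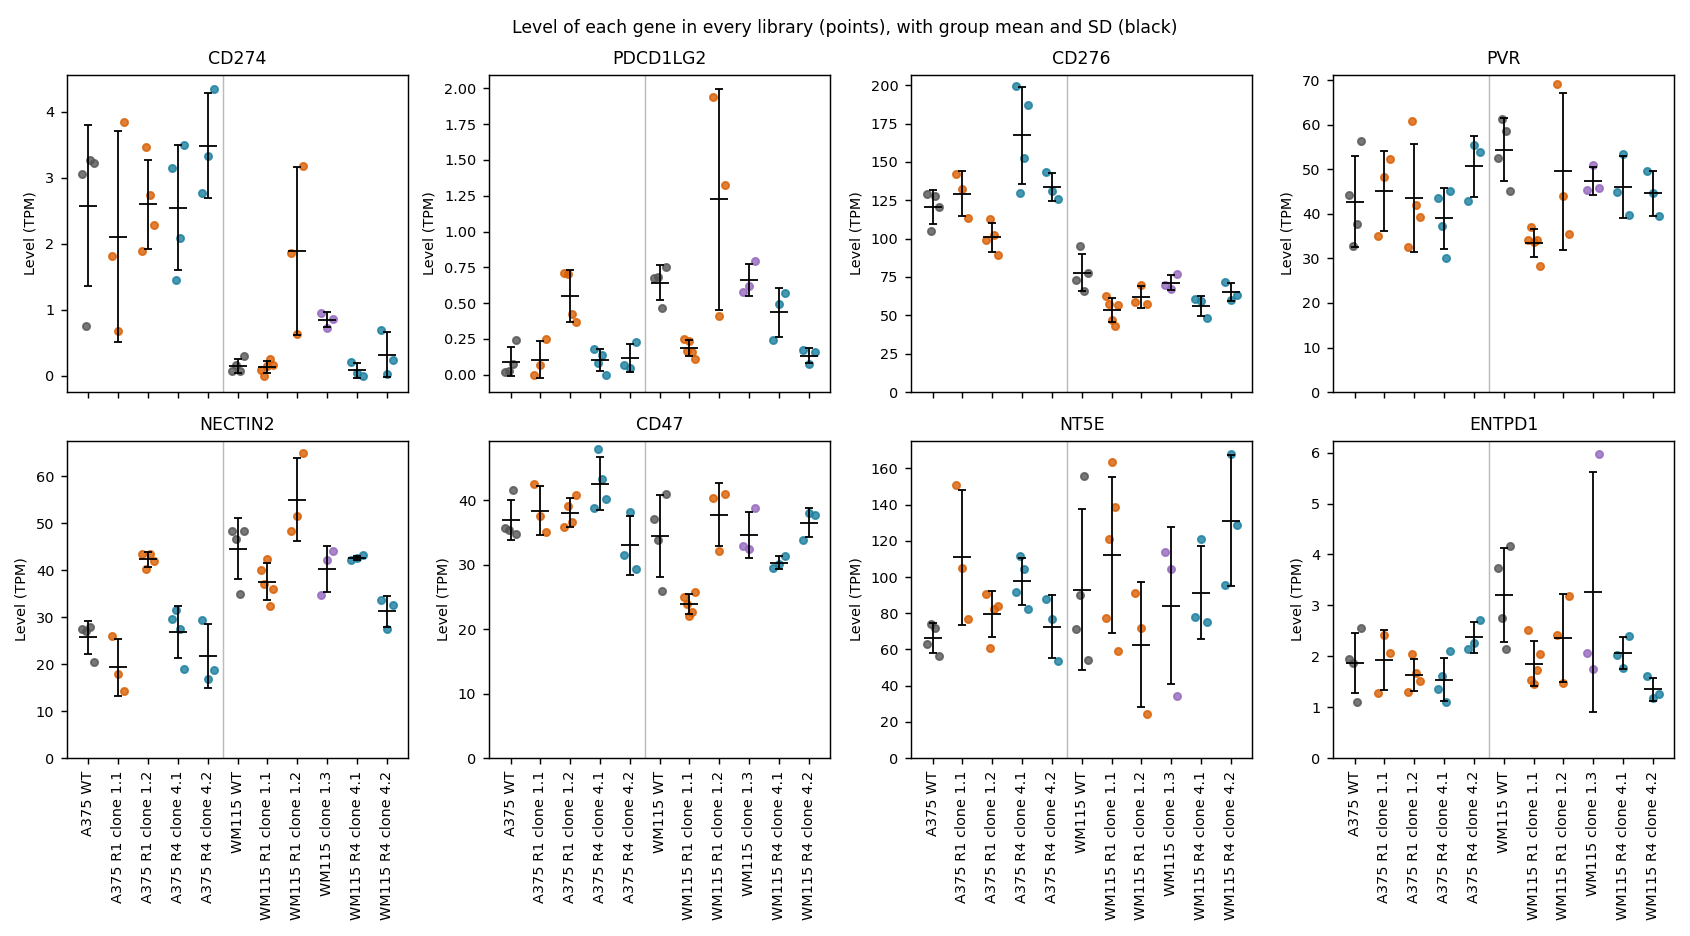
Level of each of the 8 genes in TPM (vertical axis, linear, a scale of its own per panel) in every library, by group (horizontal axis). Points are libraries, black bars the group mean and SD, with WT in grey, R1 clones in orange, R4 clones in blue and WM115 clone 1.3 in purple. CD276 lay between 89.2 and 199 TPM in A375 and between 43.3 and 94.9 TPM in WM115, while ENTPD1 and both PD-1 ligands stayed under 6 TPM.

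The WT cells of the lines were compared first, with limma on log2(TPM + 1) over all 39 libraries, and a gene was called at an adjusted p under 0.05. Of all tested genes, 48.8% were called between the WT cells, and 4 of the 7 members tested were called. CD274 was at 3.05, 0.757, 3.27 and 3.22 TPM in A375 WT and at 0.068, 0.169, 0.068 and 0.293 TPM in WM115 WT. These groups did not overlap, and the log2 difference of WM115 from A375 was -1.55 (SE 0.28, limma adjusted p 2.05e-05). The 33 tested genes within 5 Mb of CD274 on chromosome 9 had a median log2 difference of -0.98, against -0.01 for the chromosome. Copy number was not measured, and its part in this difference was not tested.

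CD276 was also lower in WM115 WT, at 66.0 to 94.9 TPM against 105 to 129 TPM in A375 WT (log2 difference -0.63, SE 0.13, limma adjusted p 0.000174). NECTIN2 was higher in WM115 WT, at 34.9 to 48.5 TPM against 20.6 to 28.0 TPM (log2 difference 0.77, SE 0.17, limma adjusted p 0.000264). ENTPD1 was higher by 0.55 on the log2 scale (SE 0.22, limma adjusted p 0.0386), with WT means of 3.20 ± 0.92 TPM in WM115 and 1.87 ± 0.60 TPM in A375 (SD, n = 4 each) and overlapping libraries. With the ribosomal protein share as a term, that difference turned to -0.33. CD47, PVR and NT5E were not called, with log2 differences for CD47 of -0.11 (95% interval -0.34 to 0.12), for PVR of 0.36 (95% interval -0.02 to 0.74) and for NT5E of 0.38 (95% interval -0.35 to 1.12). PVR was called without A375 WT library 4 (0.50, limma adjusted p 0.0339) or with the mitochondrial share as a term (0.72, 0.0396), and NT5E with the ribosomal protein share as a term (1.60, 0.0163). PDCD1LG2 was too low to test under the filter of 1 TPM in at least 3 libraries. It was at 0.466 to 0.749 TPM in WM115 WT and at 0.021 to 0.244 TPM in A375 WT. A limma fit without the filter, over 40869 genes, gave PDCD1LG2 a log2 difference of 0.59 (SE 0.13, adjusted p 0.000895). That direction is opposite to that of its neighbour CD274.

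Each clone was then compared with the WT cells of its line, in 1 fit per line. In A375, 1 member difference of 28 was called, namely NECTIN2 in clone 1.2. Of all tested genes, 1.04% were called in clone 1.1, 8.53% in clone 1.2, 1.31% in clone 4.1 and 0.557% in clone 4.2. In WM115, 6 differences were called among the 6 members tested, all toward lower levels. They were CD276, CD47 and PVR in clone 1.1, CD276 in clone 4.1, and ENTPD1 and NECTIN2 in clone 4.2. The share of all tested genes called was 22.0% in clone 1.1, 22.6% in clone 1.2, 1.06% in clone 1.3, 24.2% in clone 4.1 and 20.3% in clone 4.2. In clone 1.1, 3 of the 6 tested members were called, in clone 4.1 it was 1 and in clone 4.2 it was 2. In clones 1.2 and 1.3 the count was 0. Among the members tested, 7 in A375 and 6 in WM115, 0 passed in one direction in both clones of a deletion in these fits with all libraries. Of all tested genes, 0.282% did so for R1 and 0.198% for R4 in A375, and 4.56% for R1 and 10.8% for R4 in WM115, so a count of 0 is near that of all genes.

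**Figure D2:**
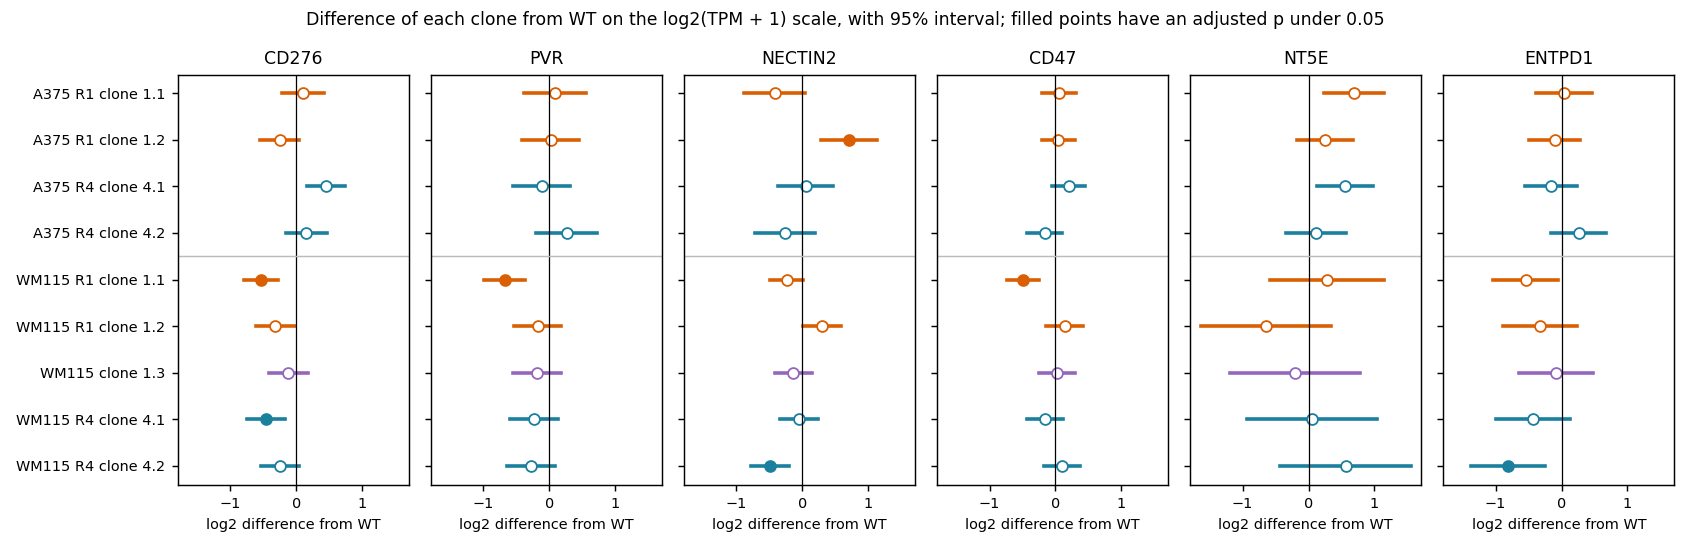
Difference of each clone from the WT cells of its line for the 6 members tested in both lines (horizontal axis, log2(TPM + 1) scale), with the 95% interval of the limma fit as a line. Filled points have an adjusted p under 0.05, with R1 clones in orange, R4 clones in blue and WM115 clone 1.3 in purple. The only filled point in A375 is NECTIN2 in clone 1.2 at 0.71, and the 6 filled points in WM115 lie between -0.81 and -0.46.

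The make-up of the WM115 libraries differed between WT and clones. The share of TPM in genes of ribosomal proteins was 12.1% to 13.6% in the WT cells and 16.3% to 18.6% in the clone libraries, apart from clone 1.3 library 3 at 11.5%. With this share as a term of the fit, 0 of the 6 differences kept an adjusted p under 0.05. In that fit the log2 differences in clone 1.1 were -0.70 for PVR, -0.38 for CD276 and -0.34 for CD47. They were -0.28 for CD276 in clone 4.1, and -0.40 for NECTIN2 and -0.06 for ENTPD1 in clone 4.2. The share and the step from WT to clone cannot be told apart for clones 1.1, 1.2, 4.1 and 4.2. Over all tested genes, the median difference on the log2 scale was -0.12 for clone 1.1 and -0.10 for clones 4.1 and 4.2. After median-of-ratios scaling these medians were at most 0.01 in size and 3 of the 6 calls remained, all of them in clone 1.1. Mitochondrial transcripts took 13.7% to 15.6% of TPM in WM115 WT and 4.71% to 14.4% in the R1 and R4 clones, where 13 of 14 libraries lay below all WT libraries. With the mitochondrial share as a term, 5 of the 6 calls remained, and ENTPD1 in clone 4.2 was lost (log2 difference -0.63, limma adjusted p 0.138). A second fit kept only WM115 libraries with a mitochondrial share over 7.5%, which left fewer libraries per clone. There the calls of CD47 and PVR in clone 1.1 and of ENTPD1 and NECTIN2 in clone 4.2 were lost (limma adjusted p 0.0643 to 0.143). In bulk RNA, fewer cells of a kind and less RNA per cell cannot be told apart.

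CD274 was low in WM115 WT cells, and its levels differed between clones of that line. In WM115 R1 clone 1.2 it was at 1.86, 0.640 and 3.18 TPM, against 0.068 to 0.293 TPM in WT. In WM115 clone 1.3 it was at 0.947, 0.725 and 0.867 TPM. All libraries of these clones lay above all WT libraries, and those of WM115 clones 1.1, 4.1 and 4.2 overlapped with WT. Since only 2 WM115 libraries reached 1 TPM, CD274 did not pass the filter there, and an exact two-sided permutation test gave p = 0.0571 for clone 1.2 and for clone 1.3. That is the smallest two-sided p this design allows, and adjusted over 14 such tests of low members it was 0.16. Without the filter, the limma fit over 36788 genes gave CD274 in clone 1.2 a log2 difference of 1.24 (SE 0.22, adjusted p 0.00262), and in clone 1.3 one of 0.69 (SE 0.22, adjusted p 0.245). Without clone 1.2 library 3, the unfiltered value of CD274 was 0.92 (adjusted p 0.0148). Most of the CD274 level in these clones lay in short non-coding transcripts. The coding transcripts of CD274 were at 0.101 to 0.970 TPM in clone 1.2, which is 28.1% of the mean gene level, against 0.0656 to 0.0699 TPM in WT. In clone 1.3 they were at 0.0486 to 0.696 TPM, which overlaps with WT.

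In A375, CD274 differed from WT in no clone by the test. Its level was 0.675 to 3.84 TPM in clone 1.1, 1.89 to 3.47 TPM in clone 1.2, 1.45 to 3.50 TPM in clone 4.1 and 2.77 to 4.35 TPM in clone 4.2. Each of these ranges overlapped with WT. Part of this spread came from short non-coding transcripts of the gene. CD274-203, of 442 bases, took 0% to 81.3% of the CD274 TPM in A375 WT libraries, while the transcripts of coding biotype together stood at 0.501 to 0.757 TPM. In clone 1.2 the coding transcripts were at 0.871 to 1.55 TPM, above all WT libraries, and this was seen without a test.

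The promoter of CD274 is shown because it was the only one among the members' promoters with a match to the interferon motifs searched. RefSeq windows of 300 bases (250 before and 50 after a transcript start, GRCh38.p14) were found for 7 of the 8 genes. The first 150 bases of the CD274 window, chr9:5450292-5450441 on the plus strand, read as follows, with motif matches in capitals.
CD274 promoter: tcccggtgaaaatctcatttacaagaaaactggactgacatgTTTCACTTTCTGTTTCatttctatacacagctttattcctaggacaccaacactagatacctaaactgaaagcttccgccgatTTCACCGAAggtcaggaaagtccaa
Counted from 1 at the 5′ end, the first run in capitals holds the IRF motif (GAAA, any 2 bases, then GAAA) on the minus strand at bases 43 and 49, as overlapping matches, and the second holds the GAS motif TTCNNNGAA at base 126. The IRF motif was found in 3.57% and the GAS motif in 7.66% of 35116 promoter windows, on either strand. AP-1 (TGANTCA), SOX (ACAANG) and E-box (CACGTG) motifs gave no match in the CD274 window, and occurred in 7.71%, 35.5% and 7.26% of all windows.

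IRF1, the factor through which interferon gamma acts on CD274, was at 42.9, 19.5 and 53.1 TPM in WM115 clone 1.2 and at 9.71 to 12.3 TPM in WT (log2 difference 1.61, SE 0.29, limma adjusted p 0.00149). In WM115 clone 1.3 IRF1 was not called, at 9.38 to 23.4 TPM (log2 difference 0.27, limma adjusted p 0.747). In WM115 clone 4.1 IRF1 was higher as well (log2 difference 1.11, limma adjusted p 0.0111), whereas CD274 there was at 0.207, 0.039 and 0.000 TPM. JAK2, a kinase of the same pathway, was called in no clone, and was lower in WM115 WT than in A375 WT (log2 difference -0.93, limma adjusted p 1.73e-06). JAK2 is itself a neighbour of CD274 (chromosome 9, 4984390 to 5128183). Between the WT lines, the tested genes within 5 Mb of CD274 had a median of -0.98. The JAK2 value is thus near that of its region, and a part of the pathway in it was not tested. CMTM6, which keeps PD-L1 protein at the cell surface, was higher in WM115 clone 1.2 than in clone 1.1 (means of CMTM6 58.5 and 28.0 TPM, limma adjusted p 0.000597) and called in no clone against WT.

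PDCD1LG2 starts 40004 bases downstream of CD274 on chromosome 9 and was under 2 TPM throughout. In A375 WT it was at 0.021, 0.025, 0.074 and 0.244 TPM, and in A375 R1 clone 1.2 at 0.709, 0.700, 0.420 and 0.368 TPM, without overlap. The exact two-sided permutation test gave p = 0.0286, the smallest possible, and 0.16 after adjustment over the 14 tests. The unfiltered limma fit gave PDCD1LG2 in this clone a log2 difference of 0.50 (SE 0.10, adjusted p 0.00577).

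In WM115 WT, PDCD1LG2 was at 0.678, 0.679, 0.466 and 0.749 TPM. WM115 R1 clone 1.1 lay below, at 0.112 to 0.251 TPM (exact permutation p = 0.0159, adjusted 0.16), and R4 clone 4.2 lay below too, at 0.073 to 0.168 TPM (exact permutation p = 0.0571, adjusted 0.16). In the unfiltered fit PDCD1LG2 had adjusted p-values of 0.0564 and 0.0605 in these clones. Clone 1.2 had the highest libraries, at 1.94, 0.409 and 1.32 TPM, and overlapped with WT. PDCD1LG2 has 1 annotated transcript, so these levels are not shared out among isoforms.

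CD276 was lower than in WT in 2 WM115 clones. WT libraries had 73.3, 94.9, 66.0 and 77.4 TPM, and R1 clone 1.1 had 62.3, 57.2, 47.1, 43.3 and 56.6 TPM. All clone libraries lay below all WT libraries, and the log2 difference was -0.54 (SE 0.12, limma adjusted p 0.00462). R4 clone 4.1 had 60.8, 59.2 and 48.5 TPM, again all below WT (log2 difference -0.46, SE 0.14, limma adjusted p 0.0234). That call was lost without WT library 2 (adjusted p 0.0796) or clone library 3 (adjusted p 0.109). Clones 1.2, 4.2 and 1.3 had 57.2 to 76.7 TPM and were not called. In WM115 clone 1.1, the 574 tested genes of chromosome 15, which carries CD276, had a median log2 difference of -0.38, and the 83 within 5 Mb of the gene one of -0.33. In clone 4.1 these medians were -0.11 and -0.08, close to that of all genes. The part of the chromosome in the CD276 values was not tested.

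In A375, CD276 pointed the other way in R4 clone 4.1, at 199, 130, 153 and 187 TPM against 129, 105, 128 and 120 TPM in WT. The groups did not overlap, and the log2 difference of 0.46 (SE 0.14) had a limma adjusted p of 0.143. Libraries of the same number deviated together in this clone and WT, and with the replicate number as a block CD276 had an adjusted p of 0.0199 at the same log2 difference. With the ribosomal protein share as a term, the CD276 difference was 0.49 (limma adjusted p 0.0366). Within 5 Mb of CD276, 82.6% of 86 tested genes were higher in this clone, with a median log2 difference of 0.32. Averaged over both R4 clones, the CD276 difference from WT was not the same in the lines. WM115 minus A375 was -0.66 on the log2 scale (SE 0.17, limma adjusted p 0.00948). This test is over libraries, so it compares these clones and not the deletion between lines. The log2 difference of A375 clone 4.2 from WT was 0.15, below that of clone 4.1. Of all genes, 11.6% were called in this test of the difference. For R1 the difference between the lines was -0.35 (SE 0.16, limma adjusted p 0.213), 6.42% of all genes were called, and 0 members.

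PVR was lower in WM115 R1 clone 1.1. The clone had 34.2, 37.0, 33.8, 34.2 and 28.4 TPM, and WT had 52.6, 61.3, 58.6 and 45.3 TPM. The groups were far apart, with a log2 difference of -0.68 (SE 0.15, limma adjusted p 0.00407). Genes around PVR on chromosome 19 were near the median of all genes in this clone (229 tested genes within 5 Mb, median -0.10). In the 4 other WM115 clones PVR was between 35.5 and 69.3 TPM, with log2 differences of -0.28 to -0.18. Without clone 1.2 library 1, at 69.3 TPM, PVR in R1 clone 1.2 was called lower than WT, as in clone 1.1 (log2 difference -0.44, limma adjusted p 0.04). In A375 the WT libraries ranged from 32.7 to 56.3 TPM, and the 4 clones had log2 differences between -0.12 and 0.26. For the mean PVR difference of the R1 clones from WT, WM115 minus A375 was -0.48 (95% interval -0.96 to -0.01), with a limma adjusted p of 0.232.

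NECTIN2 lies 182592 bases downstream of PVR on chromosome 19 and was the member that passed the test in A375. A375 R1 clone 1.2 had 43.5, 40.2, 43.4 and 42.1 TPM, against 27.4, 27.0, 28.0 and 20.6 TPM in WT. The log2 difference was 0.71 (SE 0.20, limma adjusted p 0.0365), with the groups apart. Leaving out 1 library at a time kept the log2 difference between 0.61 and 0.75, and the adjusted p came to 0.054 to 0.105 without clone library 1, 2, 3 or 4 or WT library 1, 3 or 4. The other R1 clone, 1.1, had 26.0, 17.9 and 14.2 TPM, which overlaps with WT, and A375 clone 1.2 exceeded it by 1.13 on the log2 scale (SE 0.22, limma adjusted p 0.00256). Of all tested genes, 13.2% were called between these clones, and NECTIN2 was the 1 member among them.

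In WM115, NECTIN2 was lower in R4 clone 4.2, at 33.7, 27.6 and 32.6 TPM against 48.5, 46.7, 34.9 and 48.3 TPM in WT (log2 difference -0.49, SE 0.14, limma adjusted p 0.0163). All clone libraries were below all WT libraries, and WT library 3 was the closest to them. The call was lost without clone library 2 (adjusted p 0.0914) or WT library 1 (adjusted p 0.0506). Clone 4.1, with the same labelled deletion, had 42.3 to 43.2 TPM. NECTIN2 in clone 4.2 against clone 4.1 had a log2 difference of -0.44 and a limma adjusted p of 0.0763. R1 clone 1.2 had the highest group mean of NECTIN2, with libraries at 48.4, 51.5 and 65.0 TPM (log2 difference from WT 0.30, limma adjusted p 0.121).

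CD47 was lower in WM115 R1 clone 1.1, at 25.1, 24.0, 22.0, 22.7 and 25.9 TPM against 37.1, 33.9, 26.0 and 41.1 TPM in WT. The log2 difference was -0.49 (SE 0.12, limma adjusted p 0.00535), and the highest clone library was just under the lowest WT library. Chromosome 3, which carries CD47, had a median log2 difference of -0.32 over 919 tested genes in this clone, and the 21 within 5 Mb one of -0.16. The part of the chromosome in the CD47 value was not tested. The other WM115 clones had 29.5 to 41.0 TPM and were not called. A375 libraries had 29.3 to 48.0 TPM, with log2 differences of the clones from WT between -0.16 and 0.20 and 0 calls.

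SIRPA, the receptor of CD47, is also expressed by these melanoma lines, at 6.19 to 9.19 TPM in WM115 WT. In WM115 clone 1.1 SIRPA was at 0.000 to 0.067 TPM in all 5 libraries (log2 difference -3.12, SE 0.23, limma adjusted p 5.07e-08). The clone with the lowest CD47 was therefore also the one with the lowest SIRPA. In A375, SIRPA was lower in clone 1.2 (log2 difference -0.72, limma adjusted p 0.0142) and higher in clone 4.1 (0.73, limma adjusted p 0.0478), while CD47 was called in neither.

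Of the ectoenzymes among the members, ENTPD1 was lower in WM115 R4 clone 4.2, at 1.61, 1.19 and 1.26 TPM against 3.74, 2.75, 2.15 and 4.18 TPM in WT. The groups did not overlap (log2 difference -0.81, SE 0.27, limma adjusted p 0.0381). Leaving out any clone library, or WT library 1, 2 or 4, put its adjusted p at 0.0566 to 0.12. ENTPD1 overlaps ENTPD1-AS1 on the opposite strand (chromosome 10, 95753206 to 96090238, GRCh38), and whether the counting used strand is not given in the sources used here. Reads of the gene and its antisense partner may then be mixed, and the ENTPD1 values are uncertain. The same holds for PVR, which overlaps AC243964.2 on the opposite strand, and for NECTIN2, which overlaps AC011481.2 on the opposite strand. On their own strand, PVR also overlaps CEACAM19, and ENTPD1 overlaps AL365273.1 and AL365273.2. Counting by strand would not separate those reads. In WM115 R1 clone 1.1, ENTPD1 was at 1.46 to 2.53 TPM (log2 difference -0.54, limma adjusted p 0.105). The call between the WT lines for ENTPD1 was also lost without A375 WT library 1, 2 or 3 or WM115 WT library 1 or 4, with adjusted p-values of 0.054 to 0.154.

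NT5E was called against WT in no clone of either line in these fits. In A375 its libraries lay above all WT libraries (62.8, 74.0, 71.7 and 56.6 TPM) in clones of both deletions. R1 clone 1.1 had 151, 105 and 76.6 TPM (log2 difference 0.69, SE 0.22, limma adjusted p 0.183). With the ribosomal protein share as a term, the NT5E difference in this clone was 0.88 (limma adjusted p 0.0164). R4 clone 4.1 had 91.7, 112, 105 and 82.3 TPM (log2 difference 0.55, SE 0.20, limma adjusted p 0.268). With the replicate number as a block in clone 4.1, where libraries of the same number deviated together, NT5E had a limma adjusted p of 0.00361 at the same log2 difference. That block was picked from these same data. The second clones, 1.2 and 4.2, overlapped with WT and had log2 differences of 0.25 and 0.11.

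In WM115 the spread of NT5E within a group was as wide as any difference between groups. WT libraries alone ran from 54.4 to 156 TPM, and clone 1.2 from 24.6 to 91.4 TPM, with its lowest value in library 3, the library low in melanocytic markers. The 95% intervals of the WM115 clone differences reached from -1.64 to 1.55 on the log2 scale.

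**Figure D3:**
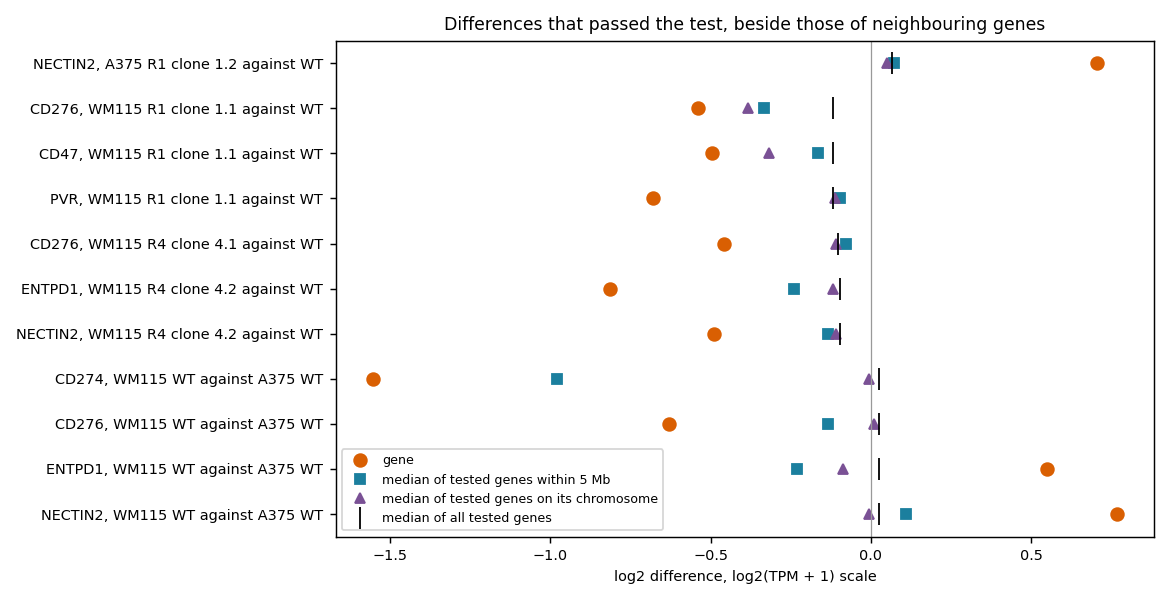
Member differences with an adjusted p under 0.05 against WT or between WT lines (orange points), on the log2(TPM + 1) scale of the horizontal axis. Squares mark the median of tested genes within 5 Mb, triangles that of the chromosome and black ticks that of all tested genes. Of the 11 differences, 10 have the sign of their median within 5 Mb, and ENTPD1 between the WT lines (0.55 beside -0.23) does not. The 10 run from CD274 between the WT lines (-1.55 beside -0.98) to NECTIN2 in A375 clone 1.2 (0.71 beside 0.07). The median of all tested genes was itself -0.12 in WM115 clone 1.1, -0.10 in clones 4.1 and 4.2 and 0.07 in A375 clone 1.2. A shared sign in these clones therefore does not single out the neighbourhood.

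Clones that carry the same labelled deletion were compared with each other. In WM115, 3 members were higher in R1 clone 1.2 than in R1 clone 1.1, and 35.5% of all tested genes were called between these clones. CD47 differed by 0.63 (SE 0.13, limma adjusted p 0.000899), NECTIN2 by 0.53 (SE 0.13, limma adjusted p 0.00405) and PVR by 0.50 (SE 0.17, limma adjusted p 0.0242). Without clone 1.2 library 3 the values were 0.57 for CD47, 0.41 for NECTIN2 and 0.71 for PVR, and the limma adjusted p-values 0.00937, 0.0465 and 0.00591. The PVR value rested on clone 1.2 library 1, at 69.3 TPM, and without it was 0.24 (limma adjusted p 0.218). The R4 clones differed in 0 members in both lines, while 3.95% of all tested genes were called between them in A375 and 6.75% in WM115. With the clone as the unit, R4 was compared with R1 over 8 clones, with the line as a term. The limma test called 0% of all tested genes, and 767 had an unadjusted p under 0.05. Member differences lay between -0.28 and 0.23 in this comparison.

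The transcript table showed which isoforms made up these levels, as a description without a test. NECTIN2-201 encodes 538 amino acids and NECTIN2-202 encodes 479, by the coding exons of GENCODE 29. In WT libraries NECTIN2-201 took 30.3% to 37.1% of the NECTIN2 TPM in A375 and 44.8% to 51.7% in WM115, without overlap. NECTIN2-202 took 40.8% to 53.7% in A375 WT and 26.7% to 35.7% in WM115 WT. The higher NECTIN2 of WM115 WT was thus mostly that of NECTIN2-201, with a mean of 21.7 TPM against 8.45 TPM. In A375 clone 1.2 both were above WT, at 15.2 and 17.8 TPM. In WM115 clone 4.2, NECTIN2-201 was at 12.1 TPM and NECTIN2-202 at 12.6 TPM, so that the lower gene level lay in NECTIN2-201.

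NT5E was split in a similar way between a full-length and a short coding transcript. NT5E-201 encodes 574 amino acids, and NT5E-202, of 974 bases, encodes 264 in its annotated part. Over all libraries NT5E-201 took 41.1% of NT5E TPM in A375 and 55.3% in WM115, and NT5E-202 took 44.4% and 34.6%. CD276-202, which encodes 534 amino acids, took 40.9% and 44.2% of CD276 TPM, more than CD276-201, which encodes 316. ENTPD1-201 took 99.5% of ENTPD1 TPM in A375 and 86.9% in WM115. PVR-201, annotated for nonsense-mediated decay, took 13.4% of PVR TPM in A375 and 22.2% in WM115.

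**Figure D4:**
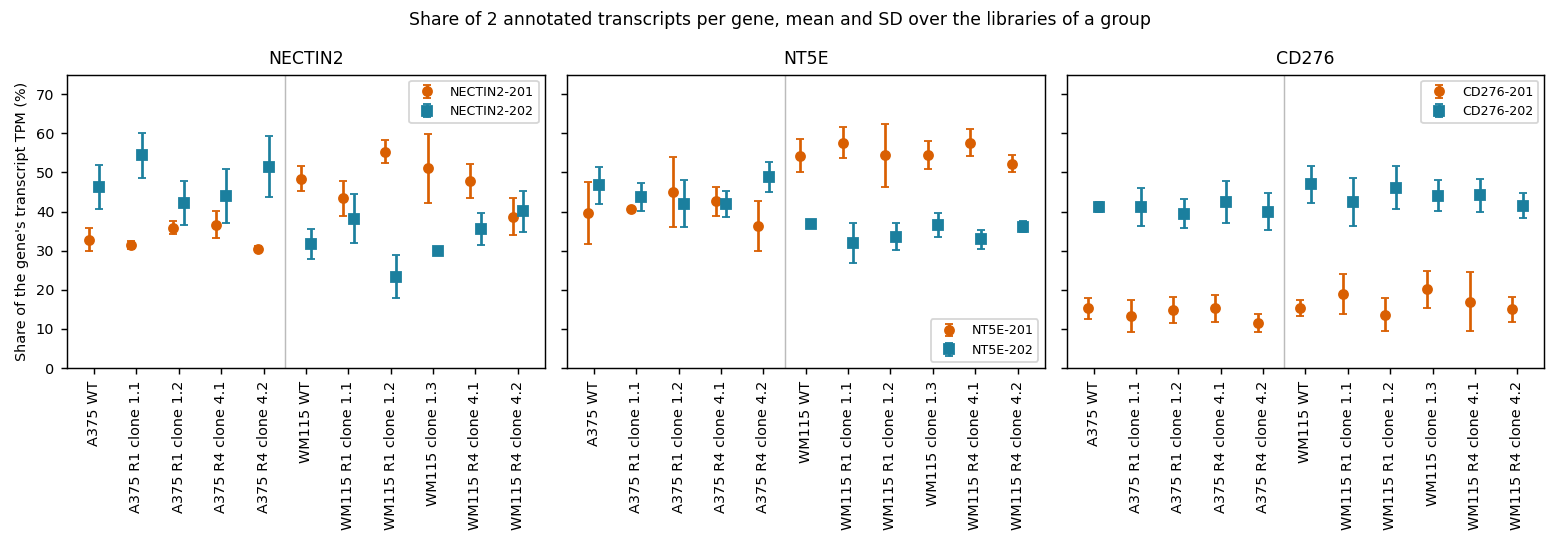
Share of the summed transcript TPM (vertical axis, %) taken by a pair of transcripts of NECTIN2, NT5E and CD276 in each group (horizontal axis), as mean and SD over libraries. For NECTIN2 and NT5E, transcript 201 took a larger mean share in the WM115 WT cells (48.4% and 54.3%) than in the A375 WT cells (32.8% and 39.7%).

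For each member tested in both lines, the most similar genes were taken by Pearson's r over the 39 libraries after removal of each line's mean. Libraries of a clone share that clone, so these values are a description. NECTIN2 was most like BCAM (r 0.884), whose gene ends 24754 bases upstream of NECTIN2 (chromosome 19, 44809059 to 44821421), and next JUP (r 0.863). BCAM, a laminin receptor, was at 39.1 to 61.3 TPM in A375 clone 1.2 and at 4.07 to 19.7 TPM in clone 1.1, and the log2 difference of 2.40 had a limma adjusted p of 0.0074. A375 WT libraries had BCAM at 11.3 to 48.5 TPM, which overlaps with clone 1.2. Against WT, BCAM was not called in clone 1.2 (log2 difference 1.21, limma adjusted p 0.159). CD276 was most like GOLIM4 (0.817) and TSPAN3 (0.816), and NT5E most like SLCO4A1 (0.777) and SERPINE2 (0.770). PVR was most like FBXO45 and PLAGL2 (both 0.794), ENTPD1 like ZBTB43 (0.818) and ATG4D (0.793), and CD47 like IP6K2 (0.757) and HLA-K (0.749).

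A list of 67 related genes, other ligands, receptors and regulators of the same pathways, placed the members in context. In A375, 41 of the list were tested and 8 calls were made over 4 clones. The share called was 4.88% in clone 1.1, 9.76% in clone 1.2, 4.88% in clone 4.1 and 0% in clone 4.2. Of all genes, 1.04%, 8.53%, 1.31% and 0.557% were called. In both A375 clones of a deletion, 0 genes of the list passed in one direction. Of all genes, only 0.282% did so for R1 and 0.198% for R4. In WM115, 44 were tested and 51 calls were made over 5 clones. Related genes were called at 20.5% of those tested in clone 1.1 and 34.1% in clone 1.2, at 29.5% in clone 4.1 and 31.8% in clone 4.2, and at 0% in clone 1.3. These shares stand beside 22.0%, 22.6%, 24.2%, 20.3% and 1.06% of all genes. The median log2 difference of the list lay between -0.13 and 0.08, and that of the tested members between -0.52 and -0.13.

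Of the 44 related genes tested in WM115, 3 passed the test in one direction in both R1 clones and 9 in both R4 clones. Among all 16997 tested genes, 775 and 1828 did so. These comparisons share the same WT libraries, so agreement between clones is not independent. With the ribosomal protein share as a term, the 51 related calls over all WM115 clones fell to 5. VSIR, which encodes the inhibitory ligand VISTA, was at 0.139 to 1.18 TPM in WM115 WT. It was higher in R1 clones 1.1 and 1.2 (log2 difference of VSIR 1.84 and 1.14, limma adjusted p 0.000254 and 0.0199) and in R4 clones 4.1 and 4.2 (2.81 and 1.85, limma adjusted p 1.31e-05 and 0.00104). TNFRSF14, the ligand of the inhibitory receptor BTLA, was lower in both R4 clones (log2 difference -2.41 and -3.04, limma adjusted p 0.0118 and 0.00349). MYC was lower in both R4 clones as well (-1.83 and -1.74, limma adjusted p 0.000915 and 0.0018), and SLC29A2, a nucleoside transporter, in both R1 clones (-1.04 and -0.99, limma adjusted p 0.00842 and 0.0238).

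On the adenosine side, ADORA2B, the low-affinity adenosine receptor, was at 15.2 to 21.2 TPM in WM115 WT. It was higher in all 4 clones of known deletion there. The 4 comparisons share those WT libraries, which differ from these clones in ribosomal protein share. The log2 differences of ADORA2B were 0.63 and 0.65 in R1 clones 1.1 and 1.2 and 0.75 and 1.15 in R4 clones 4.1 and 4.2, with limma adjusted p-values of 0.000102 to 0.0079. In A375 ADORA2B was lower in R4 clone 4.1 (log2 difference -0.89, limma adjusted p 0.0025). The mean ADORA2B difference of the R4 clones from WT was higher in WM115 than in A375 by 1.57 (limma adjusted p 2.44e-07). That test too is over libraries of these clones. ADORA1 was also higher in WM115 R4 clones 4.1 and 4.2 (log2 difference 1.24 and 1.42, limma adjusted p 0.0245 and 0.0137). ENTPD2, a relative of ENTPD1, was higher in both as well (1.67 and 1.08, limma adjusted p 0.0024 and 0.0357). These comparisons share the same WM115 WT libraries too. ADORA2A was too low to test. ADA, which degrades adenosine, was lower in WM115 clone 4.2 (log2 difference -0.91, limma adjusted p 0.0154), and DPP4, which anchors ADA at the cell surface, was lower in WM115 clone 1.1 (-0.93, limma adjusted p 0.0344) and, by the same test, in clone 4.2 (adjusted p 0.0295). NECTIN3, a binding partner of PVR and NECTIN2, was called in 0 of the 9 clones.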

How the data were processed

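RNA-seq values of 39 libraries were used as the authors deposited them, as TPM per gene and per transcript. Per the labels' protocols, polyadenylated RNA was selected and cDNA primed with random hexamers. The submitters' processing notes name DRAGEN and GRCh38; the annotation and the counting settings are not given in the sources used here. Gene TPM sum to 999999.9 to 1000000.1 per library. Each table holds 6 columns of values of no sample in the series, which were not used.

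The 8 members and the related list were chosen with earlier results of these data known. Tests used limma 3.58.1 (R 4.3.3) on log2(TPM + 1), with 1 coefficient per group, a variance trend and Benjamini-Hochberg adjustment over all tested genes, two-sided. A fold change on this scale understates that of low genes. Genes with at least 1 TPM in at least 3 libraries of a fit were tested (16692 in A375, 16997 in WM115, 18662 in both). A call needed an adjusted p under 0.05. The fit was checked on simulated data. Members under the filter were tested by exact permutation (SciPy 1.17.1). All 8 members were named, beside the most similar genes, up to 3 related genes per deletion called in both clones, and genes whose role bears on a member.

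Replicate numbers were checked for pairing: deviations from the group mean correlated at 0.326 to 0.776 in all 4 pairs of A375 clone 4.1 and WT, and not in all pairs of any other clone and WT. A pairing in A375 clone 4.1 rests on these correlations alone. Positions are from GENCODE 29 (GRCh38) by Ensembl identifier, promoters from RefSeq.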

Additional observations from a re-analysis of the deposited data

Results flagged for a closer look

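Among 40 sets of 4 or 5 library values of a member, 4 had a lowest or highest library far from the rest of its group, where chance flags about 1 in 20. In A375 WT, CD274 was at 0.757 TPM in library 2, with the others at 3.05 TPM or more, CD47 was at 41.6 TPM in library 3, and NECTIN2 was at 20.6 TPM in library 4. In WM115 WT, NECTIN2 was at 34.9 TPM in library 3. CD276 was flagged because its mean difference of the R4 clones from WT differed between lines. WM115 minus A375 was -0.66 on the log2 scale (SE 0.17, limma adjusted p 0.00948).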

How the results depend on the processing

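Read depth is unknown, each deletion is held by 1 or 2 clones per line, and the WM115 clones differ from WT in ribosomal protein share. The count of member calls against WT in A375, 1 as reported, was 0 with a minimum log2 difference of 1, median-of-ratios scaling, quantile normalization, the mitochondrial share as a term or only libraries of 1 side of the gap in that share. It was 2 with the replicate block and 3 with the ribosomal protein share as a term, and 0 to 1 with 1 library left out (0 when that library was any of the 4 of clone 1.2, or WT library 1, 3 or 4). The count in WM115, 6 as reported, was 0 with the minimum difference, 3 with median-of-ratios scaling, 0 with the ribosomal term, and 4 to 7 with 1 library left out. Within the mitochondrial set this count could not be given, because clone 4.1 has 1 library there. Clones 1.1 and 4.2 were fitted in that set with fewer libraries, and CD276 in clone 1.1 kept its call. Calls were lost there for CD47 (limma adjusted p 0.143) and PVR (0.0643) in clone 1.1. ENTPD1 (0.13) and NECTIN2 (0.0749) in clone 4.2 lost theirs too. Between the WT lines, 4 calls became 1 with the minimum difference, 2 at a mean TPM of at least 5, and 3 to 5 with 1 library left out. Between clones in A375, 1 call became 2 with no filter, median-of-ratios scaling or the ribosomal term, and 0 with the replicate block or within the mitochondrial set. Between clones in WM115, 3 calls became 0 with the minimum difference or the replicate block, 5 with no filter, and 2 to 4 with 1 library left out. The 1 call of a mean clone difference from WT that differed between lines became 0 with the minimum difference or the ribosomal term. The comparison of R1 with R4 gave 0 members throughout.

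Related genes called in A375, 8 as reported, numbered 1 with the minimum difference, 4 with only the groups compared, 18 with the ribosomal term, 0 within the mitochondrial set and 5 to 10 with 1 library left out (5 without clone 1.2 library 4 or WT library 3). In WM115 the 51 calls became 33 with the minimum difference, 30 with the replicate block, 5 with the ribosomal term and 35 to 71 with 1 library left out. Of 1028 alternative values of the 28 member differences with an unadjusted p under 0.05, 938 kept direction and side of the threshold, 78 lost and 10 gained the call. These counts are no measure of stability, because some of the 28 were not called as reported. Many of the values also leave out a library of neither compared group, where the log2 difference cannot change. With the ribosomal term, 2 of the 1028 values changed sign: ENTPD1 in WM115 clone 1.1 against WT became 0.19, and ENTPD1 between the WT lines became -0.33. The cause was not tested. Beyond A375 clone 4.1, libraries of a number did not deviate together in all pairs. There the block ended the calls of NECTIN2 in A375 clone 1.2 (adjusted p 0.0981), CD276 in WM115 clone 4.1 (0.0967), and ENTPD1 (0.0973) and NECTIN2 (0.165) in WM115 clone 4.2. In the unfiltered fit, with alternatives chosen after seeing the data, CD274 in WM115 clone 1.2 was at 0.92 to 1.59 and PDCD1LG2 in A375 clone 1.2 at 0.45 to 0.57 with 1 library left out, and both calls held.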
